A study of Mus musculus with 12 samples.

Results

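The genes described here are 9 neural self-antigens: Gad1, Gad2, Mbp, Mog, Snap25, Calb1, Cplx3, Nol4 and Csrnp3. They were taken by symbol from the 34547 genes with a quantified transcript, and all 9 symbols had an entry in every library's file and in the deposited table of regularized log2 counts, although 1 to 3 of them were at 0 counts in 11 of the 12 libraries. Poly(A) RNA was sequenced in 12 libraries from sorted mouse thymic epithelial cells (TEC), with 3 libraries in each of 4 groups. Cortical TEC (cTEC, Epcam+CD45-Ly51+UEA1-) and medullary TEC (mTEC, Epcam+CD45-Ly51-UEA1+) were sorted from wild-type (WT) mice and from Aβ0/0 mice, in which H2-Ab1 is disrupted and MHC class II is not displayed. No group carried a further allele or treatment. Each library came from a pool of 5 to 10 mice of 4 to 6 weeks, so that a value is an average over a pool, and the disruption is in the germline and touches every cell of the mouse rather than TEC alone. The comparison of genotypes asks how TEC express tissue antigens when they cannot present on MHC class II to CD4+ thymocytes.

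Thymic epithelium displays peptides of proteins that belong to other organs, and developing T cells that bind them strongly are deleted or diverted to the regulatory lineage. In the medulla, each mTEC transcribes a changing minority of such tissue-restricted genes, under Aire (autoimmune regulator), Fezf2 and factors that act without either. Brain and myelin proteins are among the antigens best studied in this respect, because T cells against glutamate decarboxylase, myelin basic protein and myelin oligodendrocyte glycoprotein accompany autoimmune disease of the islets and the nervous system. The genes fall into 4 roles. Gad1 and Gad2 encode glutamate decarboxylases, the enzymes that make the transmitter GABA. Mbp and Mog encode proteins of the myelin sheath. Snap25 and Cplx3 encode parts of the machinery that fuses synaptic vesicles with the membrane, a SNARE and a complexin. Calb1 encodes the calcium buffer calbindin, and Nol4 and Csrnp3 encode nuclear proteins expressed in neurons.

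In GRCm38, 4 of the 9 genes lie on chromosome 2. These are Gad1 (chr2:70553072-70602014, plus strand), Gad2 (chr2:22622205-22693874, plus), Snap25 (chr2:136713453-136782428, plus) and Csrnp3 (chr2:65845767-66031546, plus). Mog is at chr17:37010743-37023398 (minus), Calb1 at chr4:15881264-15908064 (plus) and Cplx3 at chr9:57599992-57606281 (minus). All 9 genes are protein coding. The annotation places an antisense gene, Gad1os, across the 5′ start of Gad1, and since no strand-specific step is named for these libraries, reads of both cannot be told apart over that stretch.

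Gad1 and Gad2 encode the same enzyme activity and had unlike levels in these libraries, and Cplx3, like Gad1, had most of its counts in WT mTEC. Their promoters (RefSeq, GRCm38.p6), from 250 bases before to 50 after the RefSeq start, are shown for that reason, with letters of any motif match in capitals. Of the 9 genes, 5 had an entry in the promoter table, and Snap25, Calb1, Mbp and Nol4 had none.
Gad1, chr2:70561879-70562178, plus strand: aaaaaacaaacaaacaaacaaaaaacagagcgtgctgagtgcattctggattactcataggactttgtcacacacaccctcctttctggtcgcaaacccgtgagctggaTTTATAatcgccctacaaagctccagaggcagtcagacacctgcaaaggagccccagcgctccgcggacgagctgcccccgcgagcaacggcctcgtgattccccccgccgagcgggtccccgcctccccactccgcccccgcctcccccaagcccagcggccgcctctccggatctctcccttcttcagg
Gad2, chr2:22622077-22622376, plus strand: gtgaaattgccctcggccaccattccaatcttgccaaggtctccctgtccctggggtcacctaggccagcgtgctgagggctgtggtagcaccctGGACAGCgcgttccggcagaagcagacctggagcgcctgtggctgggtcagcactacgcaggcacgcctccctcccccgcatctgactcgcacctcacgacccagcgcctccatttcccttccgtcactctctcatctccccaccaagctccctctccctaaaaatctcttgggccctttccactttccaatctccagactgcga
Cplx3, chr9:57606232-57606531, minus strand: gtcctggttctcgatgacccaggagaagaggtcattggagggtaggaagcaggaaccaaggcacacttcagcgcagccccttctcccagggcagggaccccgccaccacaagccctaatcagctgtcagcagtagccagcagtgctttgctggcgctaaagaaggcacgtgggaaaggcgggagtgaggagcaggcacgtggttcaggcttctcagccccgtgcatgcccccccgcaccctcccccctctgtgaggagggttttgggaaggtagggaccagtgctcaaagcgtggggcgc
The letters searched on both strands were CAGCACC and GGACAGC, the left and right parts of the RE1 element that the neuronal gene repressor Rest binds, and TATAAA. The right part was found in the windows of Gad2 and Mog, and in 6.56% of the 32851 promoters of the table. The left part was in 7.14% and TATAAA in 13.6% of them. The capitals in Gad1 are TATAAA on the minus strand, and the Cplx3 window held no match. The Gad1 window had 21 CG dinucleotides, that of Gad2 14 and that of Cplx3 11, against a median of 7 over all promoters.

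Depth was 21710319 to 36139815 estimated counts a library. Levels per library are given as CPM (estimated counts relative to library size, TMM-scaled over all 12 libraries), and levels compared between genes as TPM, which corrects for transcript length. Sums over marker lists, and whether libraries of 2 groups overlapped, were read on CPM of the library total without TMM scaling. H2-Ab1, the targeted gene, was at 6626 to 11066 CPM in the 6 WT libraries and at 1952 to 3767 CPM in the 6 Aβ0/0 libraries, so transcripts were reduced but still counted. The cTEC markers summed to 9764 to 25250 CPM in cTEC and 1516 to 3074 in mTEC, and the mTEC markers to 2659 to 4719 in mTEC and 686 to 1154 in cTEC. WT cTEC replicate 2 was the highest WT cTEC library for Calb1 and Csrnp3 and for Aire (12.8 CPM against 3.86 and 5.09), though not for Fezf2 or the sum of the mTEC markers, and the subset values of Calb1, Csrnp3 and Calb2 are given with and without it. The study's yield table lists fewer sorted mTEC for each Aβ0/0 pool than for each WT pool, so that cell input and genotype cannot be told apart in mTEC. It lists fewer cTEC than mTEC for every pool, so cell input and subset cannot be told apart in the subset comparisons. For each replicate number it also lists fewer cTEC in Aβ0/0 than in WT. In bulk RNA, fewer cells that express a gene and less RNA per cell cannot be told apart either.

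WT mTEC expressed nearly the whole set. Of the 9 genes, 8 had at least 10 counts in each of the 3 WT mTEC libraries, 4 did in each of the 3 Aβ0/0 mTEC libraries (Gad2, Mbp, Nol4 and Snap25), and 2 to 4 genes did in a cTEC library. The order of levels in WT mTEC was led by Mbp at 19.2 TPM ± 6.18 (SD, n = 3) and Nol4 at 15.2 TPM ± 3.71, followed by Gad1 at 10.4 ± 5.52, Snap25 at 10.3 ± 4.08 and Calb1 at 6.05 ± 1.44. The ranges of these neighbours overlapped from Mbp to Calb1. Csrnp3 (2.44 TPM ± 0.602) and Cplx3 (2.12 ± 0.161) lay lower, with overlapping ranges, and Gad2 (0.227 ± 0.171) and Mog (0.117 ± 0.203) were near the limit of detection. In Aβ0/0 mTEC the order was another one: Snap25 led at 29.0 TPM ± 14.6, then Mbp at 10.7 ± 5.78 and Nol4 at 8.63 ± 5.43, and the other 6 genes were below 1 TPM on average. In cTEC of both genotypes, Mbp was the leading gene of the 9 on average, at 9.62 TPM ± 0.976 in WT and 9.33 ± 5.14 in Aβ0/0, with Nol4 next at 2.81 ± 2.79 and 5.66 ± 4.96. The ranges of both genes overlapped in Aβ0/0 cTEC, and in its replicate 3 Nol4 was above Mbp (9.26 and 3.44 TPM).

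**Figure D1:**
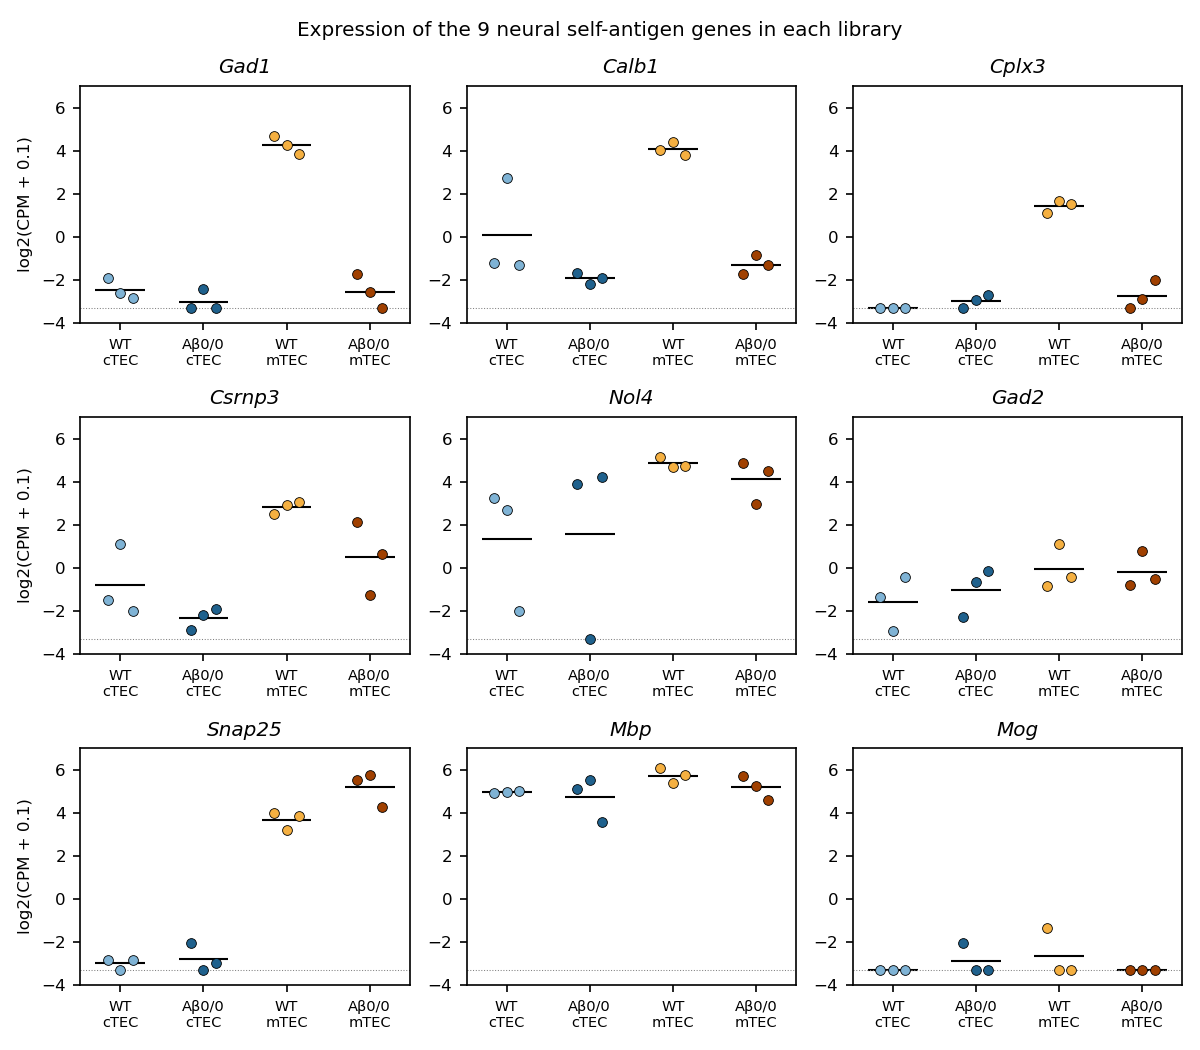
Level of each gene in each of the 12 libraries as log2(CPM + 0.1), with 3 points a group, the group mean of the logs as a bar and a dotted line at 0 CPM. The 3 WT mTEC points of Gad1, Calb1, Cplx3 and Csrnp3 sit above all 3 Aβ0/0 mTEC points, those of Snap25 sit below, and the points of Nol4, Gad2, Mbp and Mog overlap.

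Between the genotypes in mTEC, Gad1 and Calb1 were higher in WT and passed the test, Cplx3 and Csrnp3 had every WT library above every Aβ0/0 library without passing it, and Snap25 had every WT library below. Of the 8 genes tested, 2 were called higher in WT and 0 lower by edgeR's quasi-likelihood test at an adjusted p of 0.05, where 5.32% of the 18636 genes tested were called higher and 0.338% lower. An unadjusted p under 0.05 was reached by 4 of the 8, and by 2859 of the 18636 genes tested. By libraries that did not overlap, 4 genes were higher in WT, against 20.8% of genes tested, and 1 was lower, against 5.91%. The median log2 fold change of the 8 genes, WT over Aβ0/0, was 1.19, and that of all genes tested 0.0026. Without Aβ0/0 mTEC replicate 1 these medians were 1.99 and 0.12, and with the replicate number as a block 1.60 and 0.16. The filter keeps a gene with enough counts in either group, so a low gene can be tested through the group where it is high. Mog had too few counts to pass it. Without the filter the medians were 1.80 over 9 genes and 0.18 over all genes.

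Gad1 had the largest fold change of the 8 genes, and Calb1 the smallest adjusted p by DESeq2. It was at 25.2, 19.05 and 14.2 CPM in WT mTEC replicates 1, 2 and 3 and at 0.198, 0.0697 and 0 CPM in Aβ0/0 mTEC. The 3 Aβ0/0 mTEC libraries together held 7 counts, the 3 WT cTEC libraries also 7 and the Aβ0/0 cTEC libraries 3, so that WT mTEC stood alone. The log2 fold change in mTEC was 7.72 (SE 1.15, adjusted p = 0.0352, edgeR), and the ratio of the summed counts was 218 (95% exact interval 105 to 542, counting error only). Gad2, the other decarboxylase, was at 0.459, 2.06 and 0.653 CPM in WT mTEC and 0.474, 1.60 and 0.606 CPM in Aβ0/0 mTEC, with groups that overlapped fully and a log2 fold change of 0.24 (SE 0.93, adjusted p = 0.952, edgeR). Its ratio of summed counts was 1.23 (95% exact interval 0.898 to 1.68).

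Calb1 was at 16.2, 21.3 and 13.9 CPM in WT mTEC and at 0.198, 0.453 and 0.303 CPM in Aβ0/0 mTEC, a log2 fold change of 5.73 (SE 0.68, adjusted p = 0.0352, edgeR). No Aβ0/0 library came near the WT range. Cplx3 was at 2.05, 3.05 and 2.74 CPM in WT and 0, 0.0349 and 0.151 CPM in Aβ0/0 mTEC, or 239 against 5 counts, with a log2 fold change of 5.30 (SE 1.31) that missed the threshold (adjusted p = 0.0739, edgeR). Its ratio of summed counts was 42.9 (95% exact interval 18.1 to 133). DESeq2 called it (adjusted p = 1.97e-05), as did edgeR without Aβ0/0 mTEC replicate 1 (adjusted p = 0.0374).

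The nuclear protein genes, of which Nol4 lies on chromosome 18 like Mbp, had smaller differences. Csrnp3 was at 5.59, 7.38 and 8.12 CPM in WT mTEC and at 4.31, 0.314 and 1.44 CPM in Aβ0/0 mTEC, so the groups were apart but the Aβ0/0 libraries spread widely among themselves, and the log2 fold change of 1.80 (SE 1.04) was not called (adjusted p = 0.513, edgeR). It was 3.00 (SE 0.94, adjusted p = 0.0946) without Aβ0/0 mTEC replicate 1, the library nearest to WT. Nol4 was at 35.5, 25.6 and 26.7 CPM in WT and 29.3, 7.67 and 22.2 CPM in Aβ0/0 mTEC, which overlapped (log2 fold change 0.58, SE 0.50, adjusted p = 0.708, edgeR). Aβ0/0 mTEC replicate 2 was the low library for both genes.

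Snap25 went the other way. It was at 15.8, 9.05 and 14.2 CPM in WT mTEC and at 46.1, 52.9 and 18.96 CPM in Aβ0/0 mTEC, so that on CPM the lowest Aβ0/0 library was above the highest WT one. On TPM they crossed, at 12.7 TPM in Aβ0/0 mTEC replicate 3 and 14.5 TPM in WT mTEC replicate 1, as they did in the regularized log2 counts (8.08 and 8.13). The log2 fold change, WT over Aβ0/0, was -1.59 (SE 0.46, adjusted p = 0.133, edgeR), with an unadjusted p under 0.05, and DESeq2 called it (adjusted p = 0.0168). Markers of neuroendocrine cells, which release their hormones through SNARE proteins, and of tuft cells were summed beside it. The 9 neuroendocrine markers held 394 to 924 CPM in WT mTEC and 88.3 to 450 in Aβ0/0 mTEC, all 9 of them detected in both, and the 8 tuft markers 289 to 688 and 380 to 1955. Aβ0/0 mTEC replicate 1 was highest in both lists within its group, and Snap25 was highest in replicate 2 on CPM but in replicate 1 on TPM. The part of such cells in the Snap25 level was not tested.

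The myelin genes gave no call. Mbp was at 66.4, 41.1 and 53.0 CPM in WT mTEC and 52.7, 37.4 and 23.7 CPM in Aβ0/0 mTEC, with overlapping groups (log2 fold change 0.50, SE 0.35, adjusted p = 0.616, edgeR). Mog had 7 counts in WT mTEC replicate 1 and 0 in the other two, 0 in every Aβ0/0 mTEC library, 0 in every WT cTEC library and 4 in Aβ0/0 cTEC replicate 1. A difference in Mog was not detectable at this depth.

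**Figure D2:**
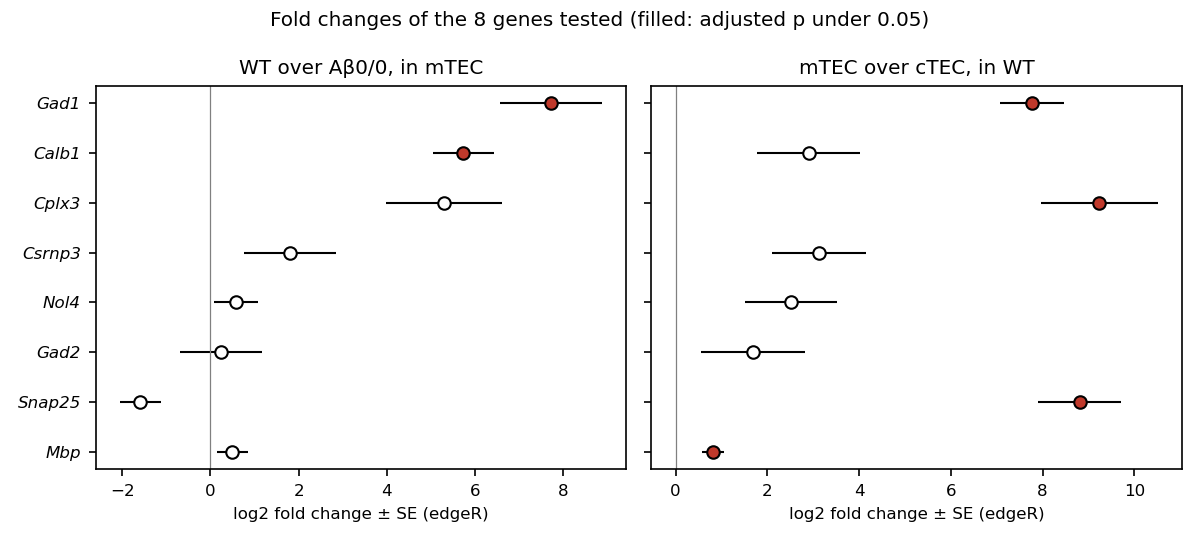
Log2 fold changes of the 8 genes tested, with the SE as the bar, between genotypes in mTEC (left) and between subsets in WT (right), and filled points for an adjusted p under 0.05 by edgeR. Gad1 and Calb1 are filled on the left, at 7.72 and 5.73, and Gad1, Cplx3, Snap25 and Mbp on the right. The Cplx3 point on the right is set by a prior count, since WT cTEC held 0 counts.

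The calls for Gad1 and Calb1 depended on the settings more than their sizes did. Over all the alternatives tried, the log2 fold change of Gad1 was between 7.16 and 8.92 and that of Calb1 between 5.49 and 6.08. Both lost the call in the fits that left out WT mTEC replicate 1, 2 or 3, with adjusted p of 0.138, 0.129 and 0.13, and without Aβ0/0 mTEC replicate 3 (adjusted p = 0.069). Gad1 also lost it without Aβ0/0 mTEC replicate 2 (adjusted p = 0.0587, edgeR), and Calb1 did not (adjusted p = 0.0413). Both calls were further lost with the replicate number as a block (adjusted p = 0.23 and 0.208), with edgeR on all 12 libraries (0.0959 for both) and when genes under a mean of 10 counts were dropped (0.0584 for both), and that of Gad1 when no gene was dropped for low counts (0.0554). DESeq2 called 4 of the genes, Gad1 (adjusted p = 3.07e-21), Calb1 (2.65e-29) and Cplx3 higher and Snap25 lower, where it called 8.61% of 22082 genes higher and 2.45% lower.

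In cTEC no gene of the set was called between genotypes. Only Gad2, Mbp and Nol4 had enough counts for a test by edgeR, and 0 of 3 were called or reached an unadjusted p of 0.05 (0 were called by DESeq2 as well), in a comparison where 0.0194% of 15432 genes were called lower in WT and none higher. Mbp was at 30.3, 30.7 and 31.8 CPM in WT cTEC and 33.9, 45.7 and 11.9 CPM in Aβ0/0 cTEC (log2 fold change 0.05, SE 0.48). Nol4 was erratic, at 9.43, 6.34 and 0.153 CPM in WT and 14.9, 0 and 18.2 CPM in Aβ0/0, so that 1 library of each genotype was nearly or wholly without it. Calb1 was the 1 gene whose cTEC libraries did not overlap on CPM (4.18% of tested genes were higher in WT by that rule), at 0.335, 6.43 and 0.306 CPM against 0.209, 0.119 and 0.168 CPM, and the high value was that of replicate 2. On TPM the libraries overlapped, with 0.490 in WT cTEC replicate 3 and 0.535 in Aβ0/0 cTEC replicate 1.

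Whether the genotype effect differed between mTEC and cTEC was tested over all 12 libraries. None of the 8 genes tested was called by edgeR, in a comparison where 0.00514% of 19461 genes were called in each direction. The unadjusted p was under 0.05 for 2 of them, Cplx3 (adjusted p = 0.408) and Gad1 (adjusted p = 0.484), as it was for 1343 of all genes tested. For Gad1 the difference of the 2 log2 fold changes was 6.34 (SE 2.08), and DESeq2 called it (adjusted p = 0.00457), as it did 1.37% of 19429 genes in that direction. The Aβ0/0 cTEC counts of Gad1 were all in replicate 2, and without that library the difference was 3.34 with an SE of 12.8 (adjusted p = 1.0, edgeR). For Calb1 the difference was 1.96 (SE 1.58, adjusted p = 0.92), and 4.84 (SE 1.21, adjusted p = 0.533, unadjusted p under 0.05) without WT cTEC replicate 2.

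Between the subsets of WT mice, every gene with usable counts leaned to mTEC. Of the 8 genes tested, 4 were called higher in mTEC and 0 lower by edgeR, where 18.0% of 18667 genes were called higher and 8.81% lower. In 7 genes all 3 WT mTEC libraries were above all 3 WT cTEC libraries, against 31.2% of genes tested, and Gad2 and Mog overlapped. The median log2 fold change of the 8, mTEC over cTEC, was 3.02 against 0.0617 for all genes tested. Without WT cTEC replicate 2 these medians were 5.40 and 0.11. With all libraries and no filter on low counts the medians were 3.08 over 9 genes and 0.31 over all genes. DESeq2 called 7 of the neural genes, where it called 22.7% of 20957 genes higher.

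Gad1, Snap25 and Cplx3 had the largest of these differences. Gad1 rose by 7.76 on the log2 scale over WT cTEC (SE 0.69, adjusted p = 0.000459, edgeR). Snap25 had 1138 counts in WT mTEC and 2 in WT cTEC, a ratio of 521 (95% exact interval 144 to 4305), with an adjusted p of 0.000715 by edgeR. Cplx3 had 239 and 0 counts, and was at least 72.9-fold higher in mTEC, taking 3 counts over the group as the floor (adjusted p = 0.00482, edgeR). Mbp differed by much less, at a log2 fold change of 0.81 (SE 0.25, adjusted p = 0.0429, edgeR), and it lost the call with the pool as a block (adjusted p = 0.0705) and without any of 4 of the 6 libraries. The Mbp call was also lost when no gene was dropped for low counts (adjusted p = 0.0599) and with edgeR on all 12 libraries (0.277).

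Calb1, Csrnp3 and Nol4 had every WT mTEC library above every WT cTEC library but were not called, and in each 1 WT cTEC library lay far from the others. Calb1 had a log2 fold change of 2.90 (SE 1.13, adjusted p = 0.0988, edgeR), which became 5.71 (SE 0.55, adjusted p = 0.000813) without WT cTEC replicate 2 and 4.30 (adjusted p = 0.0359) with the pool as a block. Csrnp3 was at 0.251, 2.06 and 0.153 CPM in WT cTEC, and its log2 fold change of 3.13 (SE 1.03, adjusted p = 0.0592, edgeR) became 5.08 (SE 0.73, adjusted p = 0.00317) without the same library and 2.63 (adjusted p = 0.0441) without WT cTEC replicate 3. Nol4 had a log2 fold change of 2.51 (SE 1.00, adjusted p = 0.108, edgeR), and 1.94 (SE 0.32, adjusted p = 0.00302) without WT cTEC replicate 3, its low library. Gad2 was not called (log2 fold change 1.69, SE 1.13, adjusted p = 0.326, edgeR).

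In Aβ0/0 mice, 4 of the 9 genes could be tested between subsets and 1 was called, Snap25, where 3.45% of 15687 genes were called higher in mTEC and 2.15% lower. Snap25 had 3187 counts in Aβ0/0 mTEC and 5 in Aβ0/0 cTEC (log2 fold change 9.43, SE 1.20, adjusted p = 0.00685, edgeR). Csrnp3 also had every mTEC library above every cTEC library, which held for 14.6% of genes tested, with 156 against 11 counts and a ratio of 17.3 (95% exact interval 9.39 to 35.3). It was not among the genes that passed the filter of edgeR, and DESeq2 called it (adjusted p = 0.0237), as it called 10.4% of 16197 genes higher. For Gad1, the 7 and 3 counts in Aβ0/0 mTEC and cTEC gave a ratio of 2.84 (95% exact interval 0.649 to 17.0), so no excess in mTEC was detectable.

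The transcripts behind these gene totals were examined next. The study measured Calb1, Nol4 and Csrnp3 in mTEC by RT-PCR, along with Aire, Fezf2 and other genes. It reports lower RNA of Aire and of a selected number of tissue-restricted genes in Aβ0/0 mTEC by that assay. The Calb1 primers show which Calb1 transcript the assay could amplify.
Calb1 forward primer: aatgagctggatgctttgct
Calb1 reverse primer: tccgacaaggccattatgtt
The forward primer lies in exon 10 (chr4:15904274-15904293) and the reverse primer in exon 11 (chr4:15904686-15904705) of Calb1-201, the coding transcript, where they bound 104 bases of the spliced RNA, and neither matches the retained-intron transcripts Calb1-202 and Calb1-203. Calb1-201 was at 5.28, 6.02 and 4.05 TPM in WT mTEC replicates 1, 2 and 3, at 2.25 TPM in WT cTEC replicate 2, and was listed at 0 in the other 8 libraries, all 3 of Aβ0/0 mTEC included. Calb1-203 was found in all 12 libraries, at 0.118 to 2.04 TPM, and made up the whole Calb1 signal of the 8 libraries without Calb1-201. The contrast lay in the coding transcript, and the remaining 26 counts of Calb1 in Aβ0/0 mTEC were assigned to the retained-intron form.

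Snap25 has 2 coding transcripts, Snap25-201 and Snap25-202, which use alternative versions of exon 5. The exons are shown since the libraries held both, with the bases at which they differ in capitals.
Snap25-201 exon 5, chr2:136770057-136770174, plus strand: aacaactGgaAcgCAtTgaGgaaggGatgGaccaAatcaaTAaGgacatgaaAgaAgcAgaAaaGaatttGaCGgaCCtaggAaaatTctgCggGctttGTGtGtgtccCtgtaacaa
Snap25-202 exon 5, chr2:136769743-136769860, plus strand: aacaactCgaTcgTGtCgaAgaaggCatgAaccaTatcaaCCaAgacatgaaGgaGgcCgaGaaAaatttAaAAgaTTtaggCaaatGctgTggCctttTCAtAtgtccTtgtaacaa
Both exons are 118 bases long, and 31 bases differ while 87 are shared. Snap25-202 held 41.7%, 31.4% and 33.7% of the Snap25 TPM in WT mTEC replicates 1, 2 and 3 and 42.5%, 35.9% and 23.1% in Aβ0/0 mTEC, and Snap25-201 held 57.5% to 76.9% over the 6 libraries. The shares of the genotypes overlapped, and both transcripts were higher in Aβ0/0 replicates 1 and 2 than in any WT library.

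**Figure D3:**
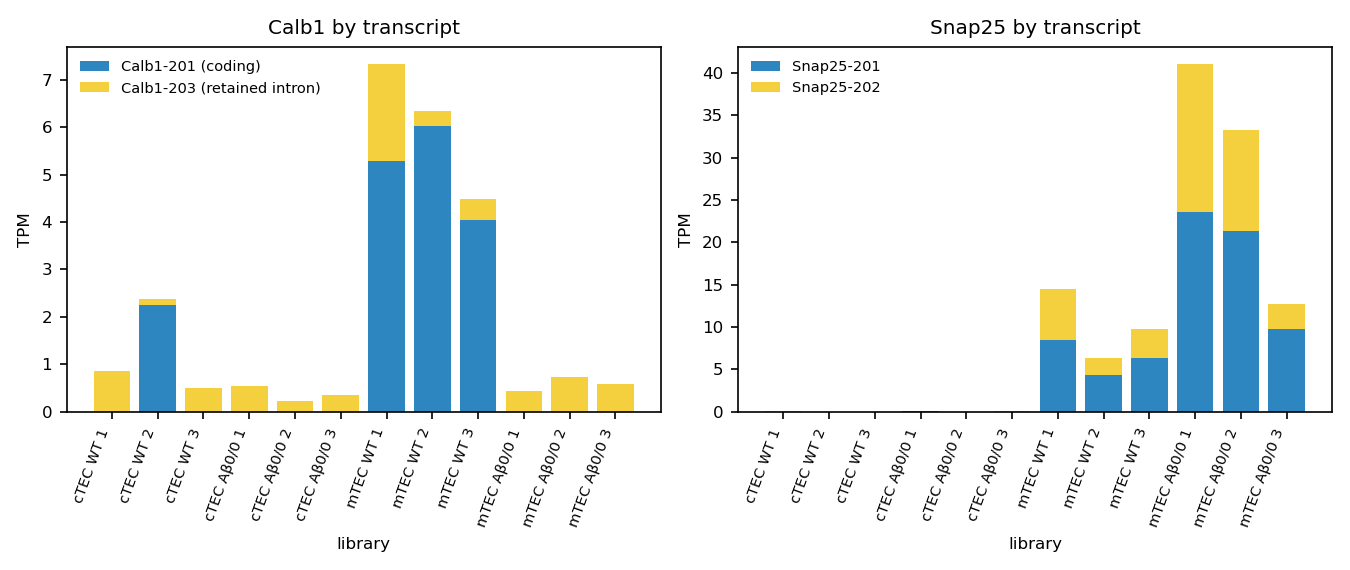
TPM of 2 Calb1 transcripts (left) and 2 Snap25 transcripts (right), stacked, in each of the 12 libraries. Calb1-201 is seen in the 3 WT mTEC libraries and WT cTEC replicate 2 only, at 2.25 to 6.02 TPM, and both Snap25 transcripts are seen in all 6 mTEC libraries.

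Mbp hides 2 products under 1 symbol. The Golli form starts far upstream and is expressed outside the nervous system, including in the thymus, whereas classical myelin basic protein comes from starts downstream. The annotation has 4 Mbp transcripts with an upstream start, 79.3 kb before the first downstream one, and 12 with a downstream start. Upstream-start transcripts held most of the Mbp TPM in all 12 libraries. In WT mTEC their share was 71.6%, 81.1% and 80.5%, while in Aβ0/0 mTEC they held the whole of it in replicates 1 and 2 and 99.97% in replicate 3. Downstream-start transcripts were at 7.36, 2.60 and 3.48 TPM in WT mTEC, and at 0, 0 and 0.002 TPM in Aβ0/0 mTEC, and the groups did not overlap. The mean share was 77.7% ± 5.31 in WT and 99.99% ± 0.01 in Aβ0/0 mTEC (SD, n = 3), a difference of -22.3 percentage points (two-sided exact permutation test, p = 0.1, the smallest that 3 against 3 allows). With estimated counts in place of TPM the difference was -11.8 points, from 88.2% ± 2.60 in WT.

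In cTEC, downstream-start transcripts were listed at 0 in 3 libraries, at 0.44 and 0.557 TPM in WT replicates 3 and 1, and at 2.00 TPM in Aβ0/0 replicate 2. Over both genotypes the upstream share was 88.9% ± 12.7 in mTEC and 95.7% ± 6.03 in cTEC (SD, n = 6), and this difference of -6.80 points was within the spread (two-sided exact permutation test, p = 0.316, and 0.312 with pools as pairs). Within WT it was -18.8 points (exact permutation test with pools as pairs, p = 0.25, the smallest that 3 pairs allow) and within Aβ0/0 it was 5.15 points (p = 1.0, exact permutation test with pools as pairs).

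**Figure D4:**
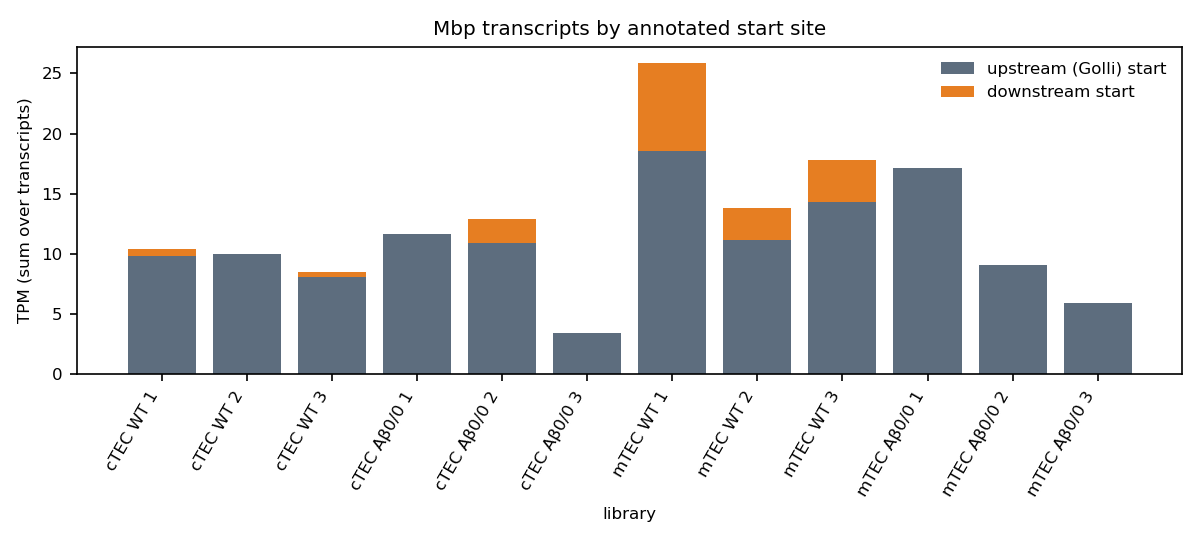
TPM of Mbp in each of the 12 libraries, stacked by the annotated start of its transcripts, upstream (Golli) in grey and downstream in orange. Orange is seen in the 3 WT mTEC libraries, at 2.60 to 7.36 TPM, in 3 cTEC libraries and not in Aβ0/0 mTEC.

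Gad1, Csrnp3 and Nol4 were spread over several transcripts. The coding transcript Gad1-201 was at 3.23, 2.42 and 3.17 TPM in WT mTEC and listed at 0 in the other 9 libraries, and the processed transcript Gad1-206 was at 6.99, 3.98 and 1.78 TPM. The coding transcript Csrnp3-204 was detected in all 12 libraries, at 0.348 to 0.477 TPM in WT mTEC and at most 0.282 TPM elsewhere. Another, Csrnp3-208, was at 0.738 to 0.940 TPM in WT mTEC, at 1.39 TPM in Aβ0/0 mTEC replicate 1 and at 0 in the other two Aβ0/0 mTEC libraries, so that the spread of Csrnp3 in that group lay mostly in 1 transcript and 1 library. Transcripts from the inner start of Nol4 held 19.8% to 35.3% of its TPM in the 6 mTEC libraries of both genotypes. All 3 Cplx3 transcripts were detected in the 3 WT mTEC libraries, and in Aβ0/0 mTEC only Cplx3-201 was, in 2 libraries.

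Genes with the most similar profile were sought among 32235 others by the mean absolute difference of centred regularized log2 values over the 12 libraries, for each of the 5 genes called in either comparison. For Gad1 these were Ceacam15 and Reg4 (0.18 for both, where the mean deviation of Gad1 itself was 1.11). For Calb1 they were Ptchd4 (0.063) and Sprr2j-ps (0.071, own deviation 0.373), and for Cplx3 Best2 (0.019) and Fcrla (0.02, own deviation 0.361). The nearest genes to Snap25 were Mapk13 (0.422) and Gm2564 (0.43, own deviation 2.11), and those to Mbp Il3ra (0.187) and Osr2 (0.188, own deviation 0.464). Values of low genes are drawn towards their mean by the transformation, so that small differences come with small deviations.

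Of 11 close relatives of the 9 genes, 10 were tested between genotypes in mTEC, with a median log2 fold change of 0.12. By edgeR 0 were called in either direction, where 5.32% of all genes tested were called higher and 0.338% lower. An unadjusted p under 0.05 was reached by 1 of the 10, and by 2859 of all 18636 genes tested. The relative that reached it was Csad, an amino acid decarboxylase. Csad was at 33.3, 42.2 and 43.0 CPM in WT mTEC and at 56.5, 56.9 and 56.2 CPM in Aβ0/0 mTEC, with every WT library below (log2 fold change -0.51, SE 0.21, adjusted p = 0.292, edgeR). The values of Cplx1, another complexin, and Calb2, which encodes the calbindin relative calretinin, were far apart in the means but uneven. Cplx1 was at 9.18, 8.27 and 5.57 CPM in WT mTEC and 1.98, 0 and 0 CPM in Aβ0/0 mTEC, and Calb2 at 29.9, 28.4 and 24.6 CPM and 0, 0.0349 and 5.53 CPM, so neither gene overlapped. Gadl1 did not overlap either, at 2.17, 1.52 and 2.33 CPM in WT mTEC and 0.514, 0.697 and 1.32 CPM in Aβ0/0 mTEC. By libraries that did not overlap, 20.8% of all genes tested were higher in WT and 5.91% lower. Between the WT subsets 2 of the 10 tested relatives were called higher in mTEC, where 18.0% of all genes were, Cplx1 (at least 206-fold, since WT cTEC held 0 counts, adjusted p = 0.00225, edgeR) and Calb2 (log2 fold change 5.77, SE 1.31, adjusted p = 0.0135). Of the 48 WT cTEC counts of Calb2, 47 were in replicate 2, and without that library the log2 fold change was 10.13 (SE 0.71, adjusted p = 0.000375, edgeR), while the call was lost without WT mTEC replicate 1 (adjusted p = 0.0573) or 2 (0.0506) and with edgeR on all 12 libraries (0.101). The 1 relative called lower, where 8.81% of all genes were, was Csad (log2 fold change -1.44, SE 0.23, adjusted p = 0.00396). Among the other relatives in mTEC, Snap23, a SNARE of most cells, averaged 50.2 CPM ± 8.29 in WT mTEC and 54.7 ± 7.54 in Aβ0/0 mTEC, Snap29 23.7 ± 2.61 and 21.1 ± 9.31, Csrnp2 9.41 ± 1.96 and 9.04 ± 5.36, and Cplx2 13.7 ± 1.67 and 14.5 ± 2.76 (SD, n = 3). Csrnp1 averaged 33.5 ± 9.90 and 22.8 ± 8.73 CPM, Nol4l 25.8 ± 2.27 and 29.5 ± 2.74, Gadl1 2.01 ± 0.429 and 0.845 ± 0.425, and Cplx4 was nearly absent, with 0 and 1 counts in WT and Aβ0/0 mTEC.

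Of 4 regulators, 1 was called between genotypes in mTEC, where 5.32% of all genes tested were called higher in WT and 0.338% lower by edgeR. By libraries that did not overlap, 20.8% of genes were higher in WT and 5.91% lower. Aire was at 981, 520 and 440 CPM in WT mTEC and 185, 118 and 129 CPM in Aβ0/0 mTEC (log2 fold change 2.17, SE 0.36, adjusted p = 0.0352, edgeR), and groups did not overlap. It lost the call without any 1 of the WT mTEC libraries, as did every gene, since 0 of all genes tested were then called by edgeR (2060 to 2183 had an unadjusted p under 0.05). The call of Aire was also lost without Aβ0/0 mTEC replicate 2 (adjusted p = 0.0673) or 3 (0.084), with the replicate number as a block (0.102), with edgeR on all 12 libraries (0.0959), when genes under a mean of 10 counts were dropped (0.0584) and when none was dropped (0.061), and DESeq2 called it (adjusted p = 3.21e-06). Fezf2 was at 430, 422 and 370 CPM and at 221, 341 and 232 CPM, also without overlap (log2 fold change 0.63, SE 0.21, adjusted p = 0.208, edgeR). Rest was at 45.3, 53.1 and 54.1 CPM in WT and 58.2, 81.1 and 87.8 CPM in Aβ0/0 mTEC, with every WT library below (log2 fold change -0.57, SE 0.22, adjusted p = 0.278, edgeR), and its partner Rcor1 averaged 44.7 ± 7.57 and 46.9 ± 19.3 CPM (SD, n = 3). Aire and Fezf2 were called higher in mTEC than in cTEC in WT (log2 fold changes 6.51, SE 0.62, and 5.53, SE 0.49, adjusted p = 0.000596 and 0.000461, edgeR), as 18.0% of all genes tested were.

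A wider list of 106 neural genes was read beside the 9, in 6 groups by role. In mTEC, 102 were tested between genotypes and 9 were called higher in WT and 0 lower by edgeR, where 5.32% of all genes were called higher. The 9 calls became 0 when no gene was dropped for low counts, when genes under a mean of 10 counts were dropped, with the replicate number as a block, with edgeR on all 12 libraries, without any 1 WT mTEC library and without Aβ0/0 mTEC replicate 2, and the count was 1 without Aβ0/0 mTEC replicate 3, 19 without replicate 1 and 20 by DESeq2. In all, 70 of the 102 had a positive log2 fold change, and the median was 0.53 against 0.0026. It was 1.34 without Aβ0/0 mTEC replicate 1 and 1.43 with the replicate number as a block, where 79 of the 102 were positive. The filter on low counts lets a gene in through the group where it is high. Without that filter 73 of 106 were positive, and the median was 0.59 against 0.18 for all genes. The GABA and glutamate group had 3 calls among 16 tested genes (median 0.79), myelin and oligodendrocyte genes 2 of 13 (median 1.57), and the synaptic vesicle (1 of 25, 0.33), calcium binding (1 of 13, 0.84), nuclear and RNA binding (1 of 15, 0.66) and cytoskeleton and adhesion groups (1 of 20, 0.24) 1 each. Among the called genes were 7 with 0 counts in all 3 Aβ0/0 mTEC libraries. The vesicular glutamate transporter Slc17a6 had 443 counts in WT mTEC (at least 132-fold higher, adjusted p = 0.0352, edgeR), the calcium sensor Hpca 434 (at least 130-fold, adjusted p = 0.0352), the neurofilament protein Ina 216 (at least 64.6-fold, adjusted p = 0.0499) and Omg, a myelin glycoprotein, 201 (at least 60.1-fold, adjusted p = 0.0352). The GABA transporter Slc6a11 (131 counts, adjusted p = 0.0352) and the vesicle protein Sv2a (126, adjusted p = 0.0358, edgeR) were at least 39.2- and 37.7-fold higher. Rbfox3, the nuclear marker of neurons, averaged 7.10 and 0.126 CPM, with a ratio of summed counts of 55.5 (95% exact interval 29.95 to 116, adjusted p = 0.0441, edgeR). Sv2a was also counted in cTEC, with 92 counts in WT and 80 in Aβ0/0. No gene of the list was called in cTEC (0 of 61, with 5 at an unadjusted p under 0.05 by edgeR, as 333 of 15432 genes were, and 3 called higher by DESeq2, as 0.478% of 18817 genes were) or in the interaction (0 of 102, with 13 at an unadjusted p under 0.05 by edgeR, as 1343 of 19461 genes were, and 2 called higher by DESeq2, as 1.37% of 19429 genes were).

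**Figure D5:**
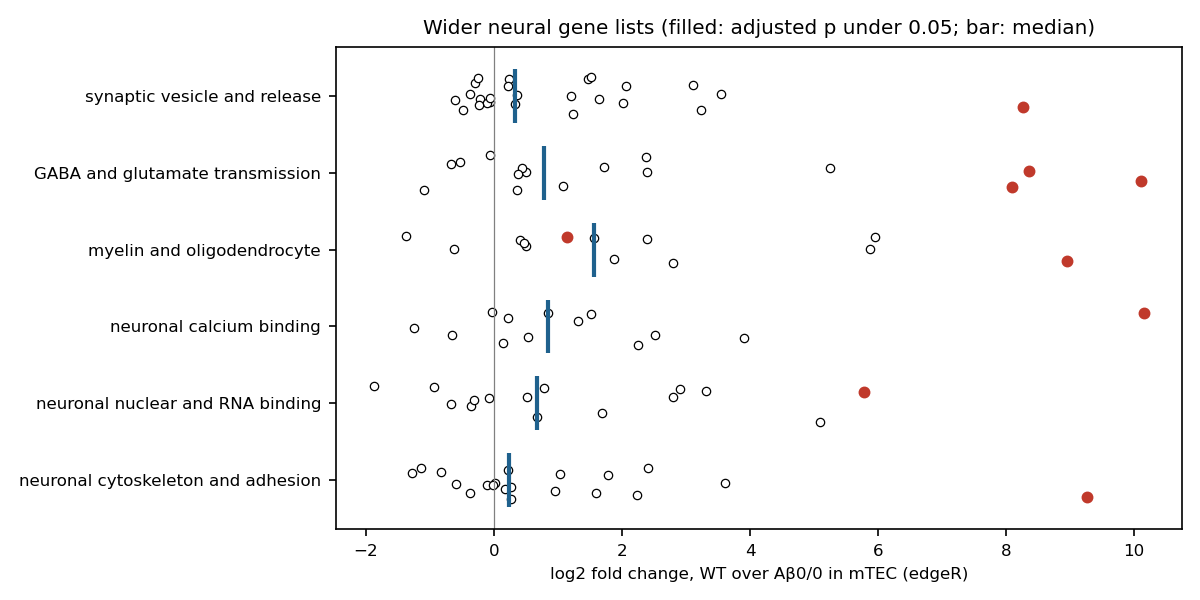
Log2 fold change, WT over Aβ0/0 in mTEC, of the 102 tested genes of the wider neural list in 6 groups, with filled points for an adjusted p under 0.05 by edgeR and a bar at each median. All 9 filled points lie above 0, and the 7 of them above 8 have 0 counts in Aβ0/0 mTEC and are set by a prior count.

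Between the WT subsets, 44 of 101 tested genes of the wider list were called higher in mTEC and 6 lower, where 18.0% and 8.81% of all genes were, with a median log2 fold change of 2.56 against 0.0617. Those with the largest fitted log2 fold changes, which a prior count sets where WT cTEC held 0 counts, were Cplx1 and Slc17a6 (at least 135-fold), the myelin genes Ugt8a (at least 72.6-fold, adjusted p = 0.00813) and Opalin (at least 68.3-fold, adjusted p = 0.0051), the neuronal transcription factor Myt1l (at least 70.8-fold, adjusted p = 0.0064), Slc6a11 (at least 40.0-fold, adjusted p = 0.00758), Rbfox3 (log2 fold change 8.81, adjusted p = 0.00142) and the RNA-binding protein Elavl4 (8.59, adjusted p = 0.00159, all by edgeR). The RNA of 6 genes was lower in mTEC. Abat, which breaks down GABA, averaged 6.76 CPM ± 2.09 in WT mTEC and 106 ± 38.7 in WT cTEC (log2 fold change -3.93, SE 0.39, adjusted p = 0.000647, edgeR), and Celf4, Vsnl1, Nlgn1, Sv2b and Nefm had log2 fold changes of -2.42, -2.24, -1.86, -1.80 and -1.71. Celf4 lost its call in 4 of the alternatives tried, Nefm in 5 and Nlgn1 in 1. The 44 calls higher in WT mTEC became 17 with edgeR on all 12 libraries and 23, 25 and 25 without WT mTEC replicate 1, 2 or 3. All genes called higher were then 1872, 2463, 2608 and 2638, against 3352. The 44 became 56 without WT cTEC replicate 3 and 61 by DESeq2. In Aβ0/0, 6 of 65 tested genes were called higher in mTEC and 2 lower, where 3.45% and 2.15% of all genes were, with a median of 1.35 against 0.0334. Without a filter on low counts the medians were 2.70 against 0.31 in WT and 1.72 against 0.08 in Aβ0/0.

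Lists of markers of other cells that can hold these RNAs were summed in each library. The 9 neuron markers held 79.4 to 102 CPM in WT mTEC and 37.3 to 64.7 in Aβ0/0 mTEC, with 8 and 4 of them at a mean of at least 1 CPM, and Dbh, an enzyme of noradrenaline synthesis, at 0 in Aβ0/0 mTEC and in all cTEC. Several are also on the wider neural list, Rbfox3, Elavl4 and Nefm among them. The 7 peripheral glia markers held 30.5 to 39.8 in WT and 22.4 to 61.3 in Aβ0/0 mTEC, with 6 and 3 at a mean of at least 1 CPM and Cdh19 at 0 in Aβ0/0. The 11 thymocyte markers held 93.3 to 209 in WT and 50.4 to 164 in Aβ0/0 mTEC, and the 9 markers of dendritic cells, macrophages and B cells 41.9 to 53.8 and 8.02 to 39.9. The 6 fibroblast markers held 196 to 286 in WT and 224 to 414 in Aβ0/0 mTEC, against 2351 to 3097 in cTEC. The 5 endothelial markers held 17.0 to 27.6 and 10.5 to 18.6 in mTEC, the 6 erythroid markers 239 to 317 and 81.3 to 422, and the 4 general epithelial markers 4912 to 5323 and 4131 to 6023. The part of such cells in the levels of the neural genes was not tested.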

How the data were processed

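Sorted-cell libraries of 4 groups of 3 were analysed, grouped by title. The deposited estimated counts and TPM were made by the authors with kallisto 0.43 (build mm10 and bcl2fastq 2.20.0, per the submitters' processing notes), which shares reads among transcripts, so that transcript values of 1 gene are model estimates. The deposited log2 values are regularized log2 counts made by the authors with DESeq2 over all libraries. Estimated counts of 107987 of 109282 transcripts matched to GENCODE M21 were summed by gene and rounded. The unmatched transcripts held 0.45% to 0.512% of counts.

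Comparisons used the quasi-likelihood test of edgeR 4.0.16 (robust, TMM, filterByExpr) in R 4.3.3, with Benjamini-Hochberg adjustment over all genes tested and a threshold of 0.05. The SE is the log2 fold change over the square root of F. DESeq2 1.42.0 was an alternative. The fits were tested on simulated data with changes set in well-counted genes only, so that test does not cover calls of genes with few counts. Exact intervals of count ratios are 95% and cover counting error only. The Mbp share was compared by exact permutation with scipy 1.17.1, with the start distance set at 20 kb.

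Libraries of both subsets with 1 genotype and number were taken as 1 pool, since the study's yield table lists both subsets per sorting. Correlations of their deviations were 0.305, 0.0124 and 0.148 in WT and 0.292, 0.139 and 0.0395 in Aβ0/0. The study describes each pool of mice as a biological replicate, so p-values measure the spread between pools. All 9 genes, their relatives and the regulators are named, with at most 8 called genes of the wider list in each direction by size of fold change in the mTEC genotype and WT subset comparisons, and the 2 nearest profiles of each called gene. Some genes that this rule or the marker lists hold are not reported here by name. The genes and lists were chosen with earlier results of these data known. Amino acid sequences and chromosome 18 sequences are not shown.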

Additional observations from a re-analysis of the deposited data

How the results depend on the processing

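In mTEC between genotypes, members called (2) became 1 without a filter on low counts, 0 with a mean of at least 10 counts, 0 with the replicate number as a block, 4 by DESeq2, 0 with edgeR on all 12 libraries, and 0 to 3 when 1 library was left out. The wider list (9) gave 0, 0, 0, 20, 0 and 0 to 19 in the same order. In cTEC the wider list gave 3 by DESeq2, and in the interaction DESeq2 called 1 member and 2 of the list. Between WT subsets DESeq2 called 7 members, and leaving out 1 library gave 3 to 6. Of the wider list (50), edgeR on all 12 libraries called 20, and leaving out 1 library gave 27 to 63. All genes called there were 4997, with 2760 on all 12 libraries and 3395 to 7572 without 1 library. In Aβ0/0, DESeq2 called 2 members, and the wider list (8) gave 5 with a mean of at least 10 counts, 2 with the replicate block, 21 by DESeq2, 14 on all 12 libraries and 1 to 5 without 1 library. All genes called (878) were 644, 630, 2779, 1819 and 338 to 456 in the same order. The cause was not tested.

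Signs that turned were of log2 fold changes that were not called. Leaving out 1 library moved Gad2 between genotypes from -0.65 (without WT replicate 2) to 0.97 in mTEC, with -0.06 without Aβ0/0 replicate 1, and from -1.55 to 0.064 (without Aβ0/0 replicate 3) in cTEC. It moved Mbp in cTEC from -0.34 (without Aβ0/0 replicate 3) to 0.47, with -0.0082 without WT replicate 3, and Mbp between Aβ0/0 subsets from -0.10 (without cTEC replicate 3) to 0.73, with -0.04 without mTEC replicate 1. In the interaction it moved Gad2 from -0.13 (without WT mTEC replicate 2) to 1.85, and Csrnp3 from -1.52 to 0.96 (without WT cTEC replicate 2), with 0.15 without Aβ0/0 mTEC replicate 1 and 0.50 with the replicate block. The Mbp share difference was -24.0 to -19.2 points in mTEC and -9.03 to -3.35 between subsets without 1 library. The pairing of pools for that share was added after seeing the data and left the difference between subsets at -6.80 points.

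WT and Aβ0/0 libraries of a number came from different pools, which the study's yield table lists side by side under the same replicate. Whether these libraries shared a sorting session is not stated. Their deviations correlated at 0.351, 0.155 and 0.0807 in mTEC and 0.304, -0.11 and 0.0159 in cTEC, and the block left 0 of all genes called in either. Pool blocks changed the calls of Mbp and Calb1 between WT subsets. All genes called in mTEC were 1054 by edgeR and 2444 by DESeq2, 27 without a filter, 11 with a mean of at least 10 counts, 20 on all 12 libraries, and 0 without any 1 WT library, 2377 without Aβ0/0 replicate 1, 83 without replicate 2 and 13 without replicate 3. The median log2 fold change of all genes was 0.18 without a filter, 0.16 with the block and 0.20 by DESeq2. Genes under about 10 counts a group, such as Mog, cannot be compared at this depth.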
